A study of Homo sapiens with 8 samples.

Results

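The genes described here encode the kinases, kinetochore, condensin, anaphase-promoting complex (APC), chromosomal passenger, spindle and cytokinesis proteins that carry a human cell through mitosis. They are 50 genes, listed by symbol and grouped by role, and each was taken from the count table by its Ensembl identifier. Of these, 49 had counts and 49 passed the filter on low counts, among 15066 genes tested, 26065 genes with at least 1 count and 60664 rows in the table. SMC4, which encodes a core subunit of condensin, had 0 counts in all 8 libraries and is not described further than its identity.

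Entry into mitosis is driven by CDK1 bound to a B-type cyclin, with the Aurora and Polo-like kinases acting beside it. Condensins and topoisomerase II shape the chromosomes, kinetochores built on the centromere attach them to spindle microtubules, and the spindle checkpoint holds the APC inactive until every kinetochore is attached. Once active, the APC with CDC20 removes securin and cyclin B, separase opens cohesin, and cytokinesis follows. Transcription of most of these genes peaks in G2 and mitosis, and is held back in resting cells by the DREAM repressor complex and raised later by B-MYB and FOXM1, so that their RNA is widely read as a mark of cycling cells.

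RNA was sequenced from A549 cells, a human lung adenocarcinoma line, in 8 libraries. They formed 4 groups of 2 libraries: untreated cells, cells given AX-0085 alone, cells given interferon gamma (IFN-γ) alone, and cells given IFN-γ and then AX-0085. AX-0085 is a small molecule designed as a kinase inhibitor and chosen for lowering the IFN-γ-driven activity of a PD-L1 reporter. The labels give 20 ng of IFN-γ without a volume, 24 h before AX-0085 was brought to 0.5 µM, and harvest after another 24 h. A vehicle for the cells without AX-0085 is not given in the sources used here. The groups therefore ask what each agent did alone and what AX-0085 did to cells already exposed to IFN-γ. The libraries of a group carry replicate numbers, but the labels do not say that they came from separate cultures, so that the p-values below measure the spread between libraries, which may be technical.

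Total counts ranged from 20672828 to 29978251 per library, where 3 counts equal 0.0959 to 0.158 CPM (library counts scaled with edgeR's TMM factors). These limits cover counting error only. Lung line markers were present in every library, but at unequal levels. KRT8 had between 32475 and 123194 counts, while KRT19 had 184 to 1262, CDH1 203 to 2557 and EPCAM only 7 to 229. Of the blood cell markers, CD3E and CD68 had no counts, PTPRC had at most 1, and HBB had 1 and 0 counts in untreated cells, 11 and 9 under AX-0085, 0 and 0 under IFN-γ, and 4 and 2 under both agents. The summed level of 4 endothelial markers was at most 0.529 CPM, and that of 5 fibroblast markers between 3.05 and 10.8, led by COL1A1. The summed level of the lung line markers was 15200 and 15900 CPM in untreated cells, 13380 and 12380 under AX-0085, 7325 and 6672 under IFN-γ, and 10800 and 10650 under both agents. The single markers did not move together. Under AX-0085, KRT18 was at 40.6% of the untreated mean, KRT8 at 53.3% and AKR1B10 at 91.0%. KRT19 was at 106.9%, NQO1 at 107.7%, CDH1 at 143.6%, AKR1C1 at 200.6% and EPCAM at 252.6%. Mitochondrial genes took 3.55% and 2.72% of counts in untreated cells, 4.12% and 5.73% under AX-0085, 1.71% and 1.82% under IFN-γ, and 2.87% and 3.43% under both agents. The part of any of these in the changes below was not tested.

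Promoters of mitotic genes are known for a cell cycle genes homology region (CHR, TTTGAA, or the variant TTCGAA), which the DREAM and B-MYB complexes contact, and for CCAAT boxes, which NF-Y binds. The 150 bases before the start of 10 members are printed here because they show where the letters stand in genes that were lower under AX-0085 and, in the last 3, genes without TTTGAA that were among those that fell most under IFN-γ. Each is 5′ to 3′ on the gene's strand, from RefSeq on GRCh38.p14, and the capitals mark the letters TTTGAA and CCAAT found on either strand. The windows are CDK1 on chr10:60778328-60778477 (plus strand), CCNB2 on chr15:59104996-59105145 (plus), PLK1 on chr16:23678739-23678888 (plus), CDC25C on chr5:138331805-138331954 (minus), ESPL1 on chr12:53268149-53268298 (plus), CDCA8 on chr1:37692366-37692515 (plus), MKI67 on chr10:128126424-128126573 (minus), SPC24 on chr19:11155783-11155932 (minus), CENPK on chr5:65563169-65563318 (minus) and NCAPH on chr2:96335616-96335765 (plus).
CDK1: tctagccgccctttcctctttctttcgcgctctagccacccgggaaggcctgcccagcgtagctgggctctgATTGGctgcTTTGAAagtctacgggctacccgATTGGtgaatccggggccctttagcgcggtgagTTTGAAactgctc
CCNB2: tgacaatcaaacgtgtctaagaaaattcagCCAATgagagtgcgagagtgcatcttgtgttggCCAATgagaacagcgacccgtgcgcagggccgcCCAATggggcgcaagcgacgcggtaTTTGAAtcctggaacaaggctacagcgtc
PLK1: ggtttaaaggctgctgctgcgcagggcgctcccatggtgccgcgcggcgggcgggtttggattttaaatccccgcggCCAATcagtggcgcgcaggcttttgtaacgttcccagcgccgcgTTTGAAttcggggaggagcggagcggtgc
CDC25C: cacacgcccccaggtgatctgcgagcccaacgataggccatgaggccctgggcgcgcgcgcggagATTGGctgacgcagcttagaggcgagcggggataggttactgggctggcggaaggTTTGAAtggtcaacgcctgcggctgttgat
ESPL1: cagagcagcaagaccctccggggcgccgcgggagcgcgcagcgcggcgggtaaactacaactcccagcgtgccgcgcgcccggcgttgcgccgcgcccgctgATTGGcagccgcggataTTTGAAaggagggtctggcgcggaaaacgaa
CDCA8: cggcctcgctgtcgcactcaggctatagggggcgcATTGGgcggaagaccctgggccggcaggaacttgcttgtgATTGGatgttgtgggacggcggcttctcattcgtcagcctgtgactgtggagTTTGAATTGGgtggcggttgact
MKI67: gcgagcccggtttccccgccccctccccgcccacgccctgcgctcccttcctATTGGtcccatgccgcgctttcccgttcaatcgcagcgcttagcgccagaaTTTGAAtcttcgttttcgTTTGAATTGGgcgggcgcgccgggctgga
SPC24: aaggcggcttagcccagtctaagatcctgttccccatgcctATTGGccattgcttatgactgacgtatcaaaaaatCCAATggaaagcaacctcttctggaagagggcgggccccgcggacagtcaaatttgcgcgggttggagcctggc
CENPK: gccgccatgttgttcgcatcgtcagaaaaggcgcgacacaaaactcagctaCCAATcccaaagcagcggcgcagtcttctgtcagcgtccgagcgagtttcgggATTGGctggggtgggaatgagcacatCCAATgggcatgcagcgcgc
NCAPH: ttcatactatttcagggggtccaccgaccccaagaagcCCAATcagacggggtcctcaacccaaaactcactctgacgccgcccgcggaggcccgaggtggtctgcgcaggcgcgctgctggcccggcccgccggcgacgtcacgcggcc

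In CCNB2, which encodes a B-type cyclin, TTTGAA began 29 bases before the start, with CCAAT beginning at 54, 87, 120 and 244 bases before it. In PLK1 it also began 29 bases before the start, in CDC25C 30, in ESPL1 31 and in CDCA8 23. CDK1 held it at 69 and 13 bases before the start and, on the other strand, 10 bases after it. SPC24, CENPK and NCAPH held CCAAT at 3, 3 and 1 places and no TTTGAA.

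A RefSeq promoter of 250 bases before to 50 bases after the start was found for 41 of the 50 members (the window nearest the MANE Select start was used). No entry was found for AURKA, BIRC5, BUB3, CENPM, FOXM1, KNL1, TPX2, TTK and UBE2C. TTTGAA stood in 30 of the 41 windows (73.2%), against 1746 of 15109 promoters of all genes (11.6%). In 19 of the 41 (46.3%) it began within the 50 bases before the start, which was so for 286 of all promoters (1.89%). CCAAT stood in 30 of the 41 (73.2%, all promoters 36.6%), and at 2 or more places in 22 (53.7%, all promoters 12.8%). TTCGAA stood in 2 (4.88%, all promoters 1.58%). Among 29 promoters of a list of replication fork genes, 1 (3.45%) held TTTGAA and 17 (58.6%) held CCAAT. In 2 members, CDCA8 and MKI67, a match of each motif overlapped. Both strands were searched, so that a match describes letters and not a bound site, and the windows of CENPI and AURKB, both without TTTGAA, lay 2854 and 326 bases from the MANE Select start. When every annotated start was used, a gene could have more than 1 window. TTTGAA then stood in 33 of 50 windows of these 41 members (66.0%) and in 15.2% of 35116 windows of all genes.

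**Figure D1:**
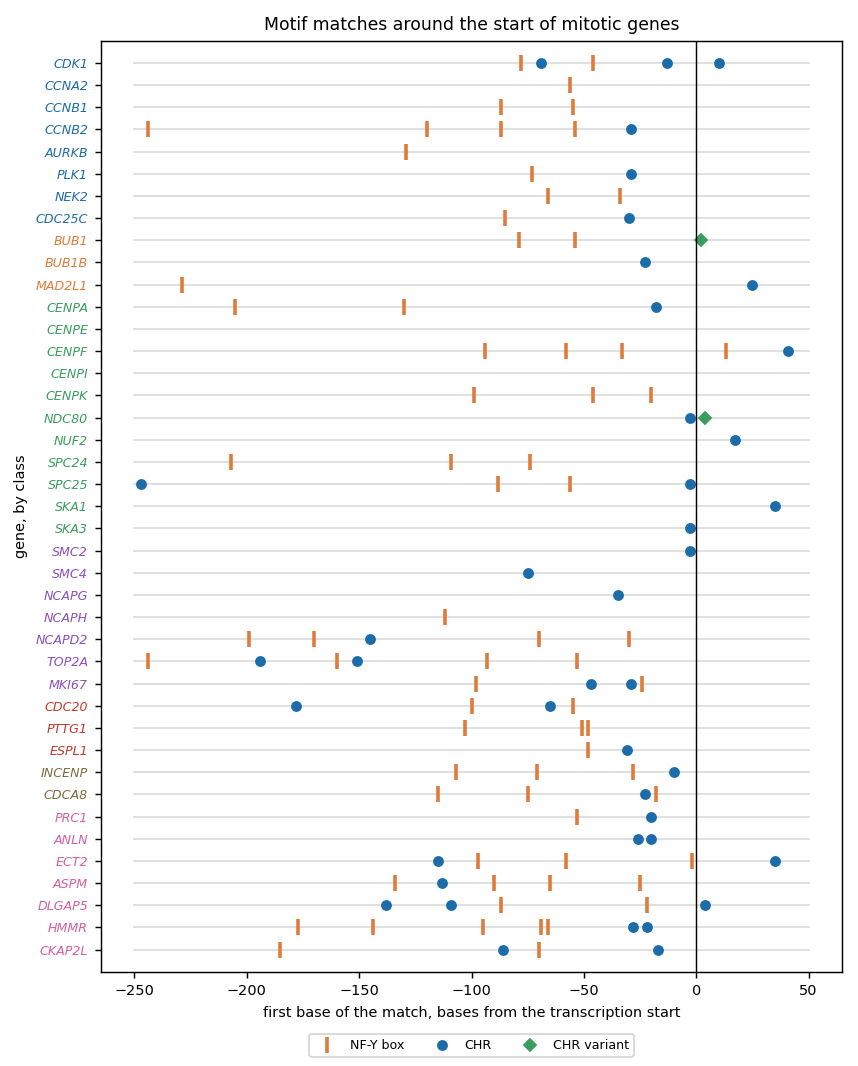
First base of each motif match (x axis, bases from the transcription start) in the promoters of 41 mitotic genes (y axis, coloured by class), with bars for CCAAT (NF-Y box), circles for TTTGAA (CHR) and diamonds for TTCGAA (CHR variant). The circles gather just before the start, with 19 genes holding TTTGAA in the 50 bases before it.

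Untreated cells expressed the members over a wide range. Per kilobase of exon, TOP2A, the topoisomerase that untangles sister chromatids, had the highest level at 179.6 CPM per kb, followed by CCNB1 at 154, CDC20 at 133 and UBE2C at 108. KNL1, the large kinetochore scaffold, was low at 4.12 CPM per kb, and CENPE, the kinetochore motor, was at 5.97. PRC1, which bundles microtubules of the central spindle, had as few as 16 and 19 counts in untreated cells, and 97.28% of its exon bases lie inside the span of another gene in GENCODE 44 (100% for SMC4). The strand setting of the counting is not given in the sources used here, so that counts of overlapping genes are uncertain. For PRC1, 57.6% of exon bases are shared with exons of another gene on the same strand, which no strand setting separates. Its low counts may therefore not reflect its expression, which was not tested. Of the other members, 55.54% of the exon bases of CCNB2, 59.1% of CKAP2L and 45.52% of FOXM1 lay inside the span of another gene.

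AX-0085 alone lowered nearly the whole set. All 49 members tested had a lower estimate than in untreated cells, from 24.2% (CDC20) to 70.4% (BUB3) of the untreated mean, with a median of 36.9%. Genes were called when the Benjamini-Hochberg-adjusted p of edgeR's quasi-likelihood test over all genes was under 0.05 and the log2 change was over 1 in size. By this rule 45 of 49 members were down-regulated, while 5.56% of all genes tested were. None was up-regulated (6.37% of all genes were), and 0 were higher at an unadjusted p under 0.05 in edgeR or called higher by DESeq2. By the adjusted p alone, without the 2-fold threshold, 48 members were lower (26.6% of all genes) and 0 higher (26.6% of all genes). The median log2 change was -1.44 over the members and 0.01 over all genes. The members' summed level was 7627 and 7503 CPM in the untreated libraries and 2987 and 3089 CPM under AX-0085. In RNA of whole cultures, fewer cells in mitosis and less of these RNAs per cell cannot be told apart.

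**Figure D2:**
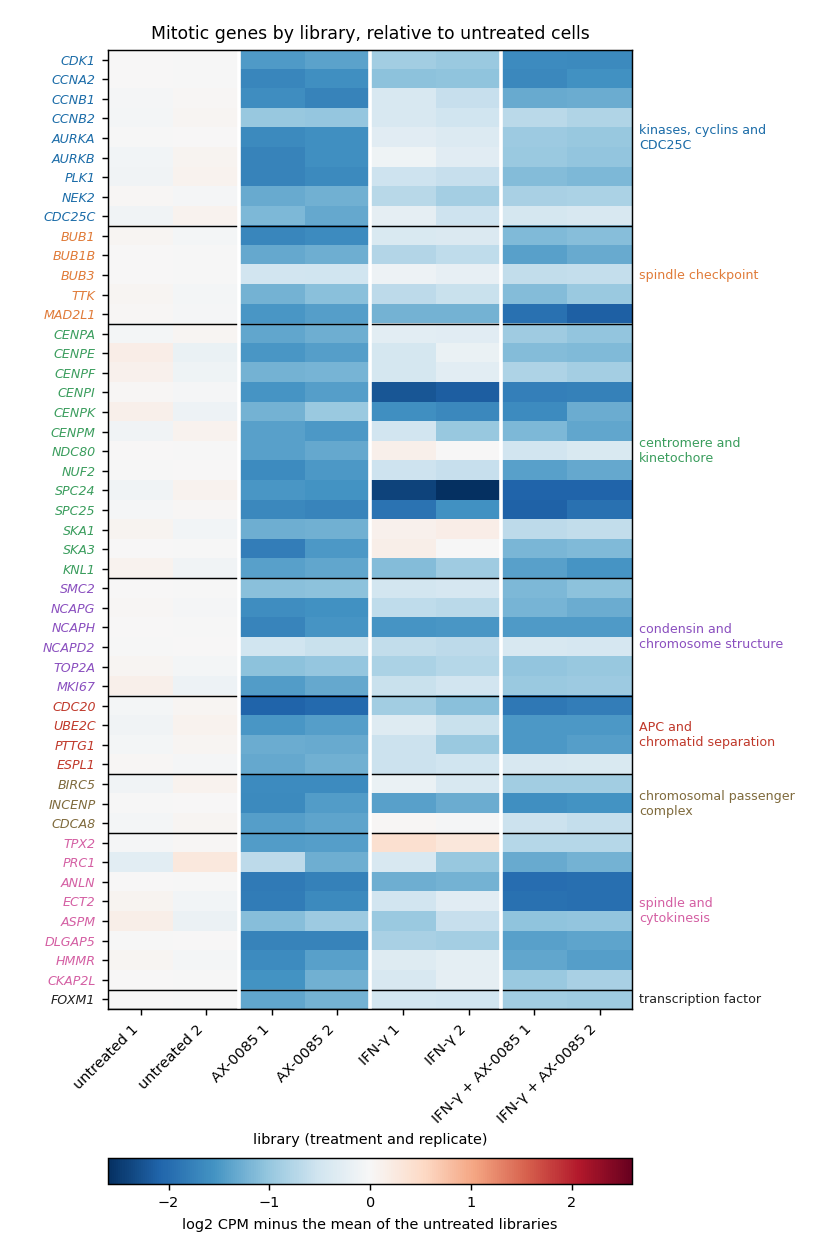
Log2 CPM of 49 mitotic genes (rows, by class) in each of the 8 libraries (columns), minus the mean of the untreated libraries, where blue is lower and red is higher. The AX-0085 columns are blue for every gene, while the IFN-γ columns are darkest at SPC24, CENPI and SPC25 and light at TPX2, SKA1 and SKA3.

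Among the kinases and their cyclins, 8 of 9 were down-regulated by AX-0085, with a median log2 change of -1.63. CDK1, the kinase that starts mitosis, had 4794 and 3879 counts in untreated cells, 1437 and 1595 under AX-0085, 1598 and 2029 under IFN-γ, and 1591 and 1117 under both agents. At the library depths these are 159 and 158 CPM, 57.2 and 60.0 CPM, 84.3 and 81.5 CPM, and 50.8 and 50.2 CPM. The untreated libraries were above all others and the AX-0085 libraries were below both IFN-γ libraries. CDK1 fell by 1.43 ± 0.06 (SE) on the log2 scale under AX-0085 (adjusted p = 2.63e-10, edgeR quasi-likelihood test with Benjamini-Hochberg adjustment).

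CCNB1, the B-type cyclin that activates CDK1, was at 365 and 382 CPM in untreated cells, 121 and 112 under AX-0085, 279 and 245 under IFN-γ, and 150.2 and 153 under both agents. Its levels under AX-0085 were the lowest of the 4 groups, and no groups overlapped. It fell by 1.68 ± 0.07. PLK1, the Polo-like kinase of spindle assembly and mitotic exit, had the largest change of the class, from 213 and 239 CPM to 67.8 and 72.0 CPM, a log2 change of -1.69 ± 0.07. With IFN-γ it stood at 156 and 149 CPM and under both agents at 103 and 101 CPM, between the other groups. AURKA, the centrosomal Aurora kinase, was at 203 and 208 CPM untreated, 64.9 and 68.4 under AX-0085, 168 and 161 under IFN-γ, and 106 and 104 under both agents. It fell by 1.63 ± 0.06 under AX-0085.

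The exception of this class was CCNB2, at 107 and 114 CPM untreated, 55.8 and 55.3 under AX-0085, 82.9 and 77.1 under IFN-γ, and 68.3 and 64.2 under both agents. Its groups did not overlap either, and its log2 change under AX-0085 was -0.99 ± 0.07 (adjusted p = 2.20e-08, edgeR quasi-likelihood test with Benjamini-Hochberg adjustment), just short of the 2-fold threshold. The change was -1.02 when untreated replicate 1 was left out, past the threshold. AURKB, the kinase of the chromosomal passenger complex, changed by -1.67, CCNA2, the cyclin of S phase and early mitosis, by -1.65, NEK2, a centrosome kinase, by -1.27, and CDC25C, the phosphatase that activates CDK1, by -1.24.

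Of the spindle checkpoint genes, 4 of 5 were down-regulated (median -1.31). BUB1, a checkpoint kinase at the kinetochore, went from 173 and 163 CPM to 51.8 and 53.9 CPM under AX-0085, and was at 127 and 129 under IFN-γ and at 75.5 and 77.9 under both agents, with no overlap between groups. Its log2 change under AX-0085 was -1.67 ± 0.06. BUB3, which binds both BUB1 and BUB1B and has other partners outside mitosis, moved least of all 49 members under AX-0085, from 221 and 219.8 CPM to 155 and 155 CPM. It was at 200 and 189.6 CPM under IFN-γ and at 142 and 143 under both agents. Its log2 change of -0.51 ± 0.05 passed the p threshold (adjusted p = 2.32e-06, edgeR quasi-likelihood test with Benjamini-Hochberg adjustment) but not the 2-fold one. MAD2L1, which encodes the MAD2 checkpoint protein, changed by -1.47, BUB1B by -1.31, and TTK, the MPS1 kinase, by -1.16.

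All 13 centromere and kinetochore genes were down-regulated by AX-0085, with a median of -1.45. SPC25, of the NDC80 complex that grips microtubules, changed most in the class, from 28.7 and 30.3 CPM to 9.28 and 8.99 CPM (-1.69 ± 0.11). Its IFN-γ libraries had 7.76 and 9.96 CPM and those under both agents had 6.84 and 7.73 CPM, so that the AX-0085 levels lay within the range of the IFN-γ levels. CENPK, of the constitutive centromere network, changed least, from 39.4 and 33.3 CPM to 15.5 and 18.6 CPM (-1.09 ± 0.12), and was at 11.9 and 11.4 CPM under IFN-γ and at 11.7 and 14.7 under both agents. Without untreated replicate 1 its change was -0.95 and without AX-0085 replicate 1 it was -0.97, short of the 2-fold threshold. CENPA, the histone H3 variant that marks centromeres, changed by -1.30, CENPE by -1.48 and CENPF, a large kinetochore protein, by -1.22.

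Of the 6 measured genes of condensin and chromosome structure, 5 were down-regulated (median -1.24). TOP2A was at 1182 and 1108 CPM untreated, 547 and 569 under AX-0085, 644 and 689 under IFN-γ, and 565 and 577 under both agents. The untreated libraries stood apart from the rest, and the AX-0085 and combined libraries overlapped. Its log2 change under AX-0085 was -1.04 ± 0.06 and became -0.98 without untreated replicate 1, short of the threshold. MKI67, which encodes the Ki-67 proliferation antigen that coats mitotic chromosomes, went from 464 and 384 CPM to 153 and 169 CPM under AX-0085 (-1.40 ± 0.08), with 281 and 299.7 CPM under IFN-γ and 217 and 219.6 under both agents.

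NCAPH, the kleisin subunit of condensin I, had the largest change of the class, from 114 and 112 CPM to 34.5 and 39.1 CPM (-1.62 ± 0.07). It was at 39.1 and 39.7 CPM under IFN-γ and at 40.7 and 40.8 under both agents, so that the 3 treated groups lay close together. NCAPD2, another condensin I subunit, behaved otherwise, at 404 and 411 CPM untreated, 285 and 272 under AX-0085, 262 and 253 under IFN-γ, and 308 and 301 under both agents. Its log2 change under AX-0085 was -0.55 ± 0.06 (adjusted p = 1.51e-06, edgeR quasi-likelihood test with Benjamini-Hochberg adjustment). SMC2, the condensin ATPase, changed by -1.08 and NCAPG, a condensin I subunit, by -1.60.

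The 4 genes of the APC and of chromatid separation were all down-regulated (median -1.39). CDC20, the activator of the APC, had the largest change of any member, from 256 and 279 CPM in untreated cells to 63.2 and 66.2 CPM under AX-0085, a log2 change of -2.05 ± 0.07 (adjusted p = 1.05e-10, edgeR quasi-likelihood test with Benjamini-Hochberg adjustment). It was at 144 and 126 CPM under IFN-γ and at 73.6 and 76.7 under both agents, and no groups overlapped. ESPL1, which encodes separase, changed least in the class, from 65.9 and 63.9 CPM to 25.9 and 27.2 CPM (-1.29 ± 0.07), and was at 44.02 and 45.1 CPM under IFN-γ and at 48.9 and 49.1 under both agents. UBE2C, an APC ubiquitin-conjugating enzyme, changed by -1.48 and PTTG1, which encodes securin, by -1.30.

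All 3 genes of the chromosomal passenger complex other than AURKB were down-regulated (median -1.55). BIRC5, which encodes survivin, was at 249.1 and 279 CPM untreated, 85.2 and 85.2 under AX-0085, 233 and 198 under IFN-γ, and 140.2 and 141 under both agents (AX-0085 against untreated -1.63 ± 0.08). CDCA8, which encodes borealin, changed least, from 76.2 and 80.7 CPM to 29.0 and 30.2 CPM (-1.41 ± 0.07). With IFN-γ it was at 80.3 and 77.0 CPM, within the untreated range, and under both agents at 53.2 and 50.8. INCENP, the scaffold of the complex, changed by -1.55.

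Of the 8 spindle and cytokinesis genes, 7 were down-regulated (median -1.48). ANLN, the anillin scaffold of the cleavage furrow, changed most, from 303 and 302 CPM to 85.0 and 89.0 CPM (-1.80 ± 0.06), with 126 and 129 CPM under IFN-γ and 76.5 and 78.0 under both agents. ECT2, the exchange factor that starts furrowing, changed by -1.74, DLGAP5, a spindle microtubule protein, by -1.73, HMMR, a spindle pole protein, by -1.52, TPX2, the activator of AURKA on the spindle, by -1.44, CKAP2L, a spindle protein, by -1.39, and ASPM, a spindle pole protein, by -1.04. PRC1 had 16 and 19 counts untreated, 10 and 7 under AX-0085, 9 and 8 under IFN-γ, and 8 and 6 under both agents. Its log2 change under AX-0085 was -0.95 ± 0.42 (adjusted p = 0.0719, edgeR quasi-likelihood test with Benjamini-Hochberg adjustment), and no difference was detectable at these counts. FOXM1, the transcription factor of G2 and mitotic genes, went from 78.0 and 77.2 CPM to 30.5 and 33.2 CPM (-1.28 ± 0.07), with 55.6 and 54.3 CPM under IFN-γ and 41.4 and 40.9 under both agents.

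IFN-γ alone gave a smaller and more uneven change. It had been given 24 h before AX-0085, so that the time of exposure differs between the agents. The median log2 change of the members was -0.57, while that of all genes was -0.06. Of 49 members, 10 were down-regulated, and 17.2% of all genes tested were, so that the share of members called was near that of all genes. None was up-regulated (10.2% of all genes were), although 1 member, TPX2, was higher at an unadjusted p under 0.05 in edgeR. DESeq2 called 9 lower and 0 higher. By the adjusted p alone 43 members were lower (36.0% of all genes) and 1 higher (32.1% of all genes). The members' summed level was 5177 and 5106 CPM, between the untreated and the AX-0085 libraries.

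**Figure D3:**
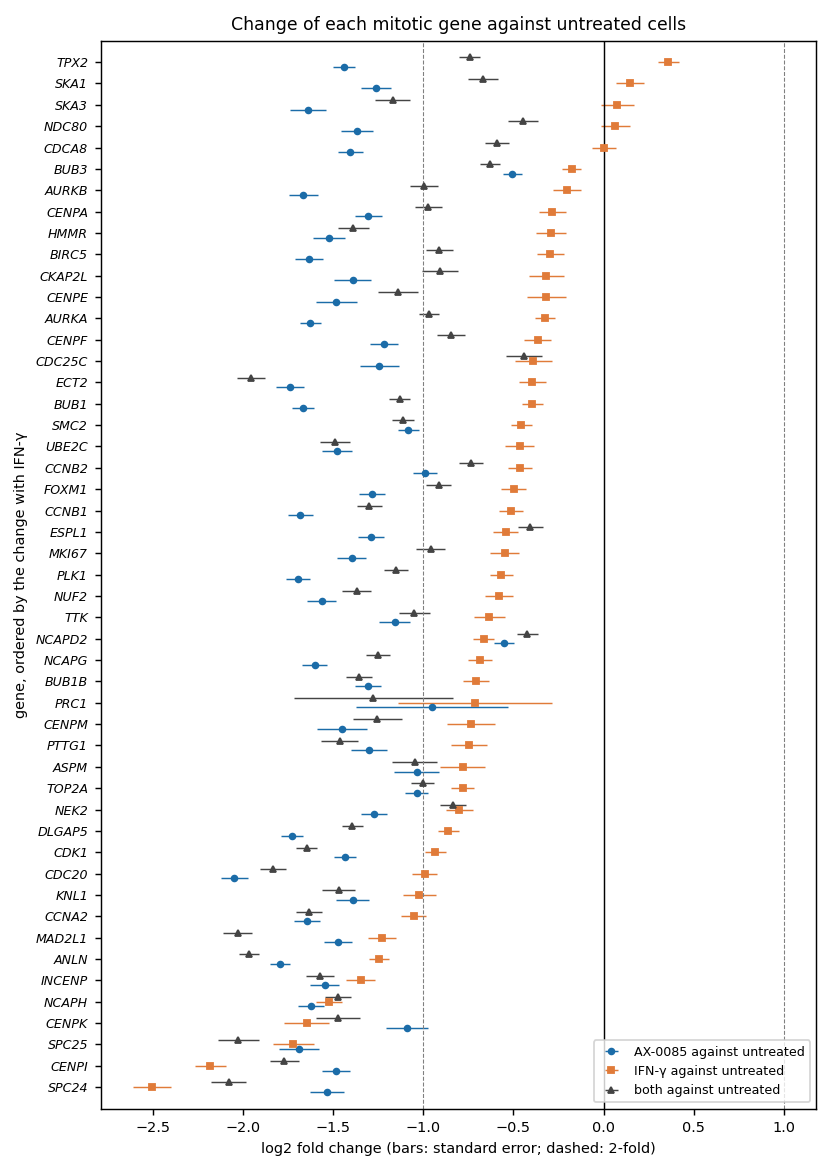
Log2 fold change against untreated cells (x axis, bars are standard errors) for each of 49 mitotic genes (y axis, ordered by the IFN-γ change), under AX-0085 as circles, IFN-γ as squares and both as triangles, and dashed lines at 2-fold. The IFN-γ squares run from -2.50 at SPC24 to 0.36 at TPX2, while all circles and triangles lie below 0.

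The largest falls under IFN-γ were in kinetochore genes. SPC24, of the NDC80 complex, was at 34.2 and 38.9 CPM untreated, 12.7 and 12.5 under AX-0085, 6.86 and 6.07 under IFN-γ, and 8.63 and 8.63 under both agents. The IFN-γ libraries were the lowest of all, at 17.7% of the untreated mean, and no groups overlapped. It fell by 2.50 ± 0.10 on the log2 scale under IFN-γ (adjusted p = 4.25e-11, edgeR quasi-likelihood test with Benjamini-Hochberg adjustment) and by 1.53 under AX-0085.

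CENPI, of the constitutive centromere network, went from 48.1 and 46.4 CPM to 10.1 and 10.7 CPM under IFN-γ (-2.18 ± 0.08), and was at 16.3 and 17.5 under AX-0085 and at 13.8 and 13.9 under both agents. As in SPC24, the IFN-γ libraries were the lowest and those under both agents lay between them and the AX-0085 libraries. SPC25 fell by 1.72 ± 0.11, CENPK by 1.65 ± 0.13 and KNL1 by 1.02 ± 0.09 under IFN-γ, which made 5 of 13 centromere and kinetochore genes.

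The other members called lower under IFN-γ were spread over the classes. They were NCAPH (-1.52 ± 0.07), INCENP (-1.35 ± 0.08), ANLN (-1.25 ± 0.05), MAD2L1 (-1.23 ± 0.08) and CCNA2 (-1.05 ± 0.07). CDC20 was at -0.99 and CDK1 at -0.93, just short of the 2-fold threshold. None of the 4 APC and chromatid separation genes was called (4 lower at an unadjusted p under 0.05 in edgeR).

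At the other end, TPX2 was at 351 and 365 CPM untreated, 131 and 133 under AX-0085, 478 and 443 under IFN-γ, and 213 and 215 under both agents. Both IFN-γ libraries were above both untreated ones, and the log2 change was 0.36 ± 0.06 (adjusted p = 6.57e-05, edgeR quasi-likelihood test with Benjamini-Hochberg adjustment), under 2-fold. SKA1, of the complex that couples kinetochores to microtubule ends, was at 31.7 and 28.8 CPM untreated, 12.5 and 12.7 under AX-0085, 32.7 and 34.3 under IFN-γ, and 18.8 and 19.3 under both agents. Its IFN-γ change of 0.15 ± 0.08 did not pass the test (adjusted p = 0.112, edgeR quasi-likelihood test with Benjamini-Hochberg adjustment). SKA3, of the same complex, was at 35.2 and 34.5 CPM untreated, 9.95 and 12.4 under AX-0085, 38.9 and 34.8 under IFN-γ, and 15.4 and 15.6 under both agents, and its untreated and IFN-γ libraries overlapped. NDC80 (0.07 ± 0.08) and CDCA8 (0.00 ± 0.07) did not pass the test either. With scaling by library size alone, CDCA8 was at -0.11 and SKA3 at -0.04.

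Calls were also counted by promoter. Of the 29 tested members with TTTGAA in the window, 26 were down-regulated by AX-0085 (median -1.40) and 4 by IFN-γ (median -0.57). Of the 11 without it, 11 were down-regulated by AX-0085 (median -1.53) and 5 by IFN-γ (median -0.80), namely SPC24, CENPI, CENPK, NCAPH and CCNA2. Over all genes tested, 5.56% were down-regulated by AX-0085 and 17.2% by IFN-γ. The group without TTTGAA is uncertain, since the windows of CENPI and AURKB lay 2854 and 326 bases from the MANE Select start. It also includes BUB1, which held the variant TTCGAA. These counts are a description, and the difference was not tested.

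Genes whose proteins work in one complex or pathway could be set against each other within a library, and 7 pairs were chosen for this after their values had been seen. SPC24 counts were 133% and 154% of NDC80 counts in untreated cells and 133% and 123% under AX-0085, but 24.7% and 23.7% under IFN-γ and 47.6% and 44.7% under both agents. SPC25 counts were 57.5% and 59.9% of NUF2 counts, the partner in the same complex, in untreated cells, 57.4% and 50.4% under AX-0085, 22.5% and 30.2% under IFN-γ, and 36.3% and 38.4% under both agents. In both pairs the untreated and AX-0085 ratios were at least 50.4% and those under IFN-γ were lower in all 4 libraries.

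INCENP counts relative to CDCA8 were 152% and 145% untreated, 127% and 142% under AX-0085, 54.3% and 62.2% under IFN-γ, and 73.0% and 77.7% under both agents. NCAPH relative to SMC2 differed, since its ratio was also lower under AX-0085: 74.4% and 74.2% untreated, 48.1% and 54.0% under AX-0085, 35.8% and 35.1% under IFN-γ, and 59.9% and 55.7% under both agents. TPX2 relative to AURKA moved the other way, from 173% and 175% untreated to 202% and 195% under AX-0085, 285% and 276% under IFN-γ, and 201% and 207% under both agents. CCNA2 relative to CCNB1 was 27.9% and 26.5% untreated, 25.8% and 30.1% under AX-0085, 17.4% and 20.1% under IFN-γ, and 21% and 22.2% under both agents. CENPI relative to CENPF was 17.5% and 19.8%, 15.0% and 15.8%, 5.46% and 5.10%, and 9.45% and 10.1% in the same order. These ratios are within a library and show unequal change of the pair, not which partner changed.

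**Figure D4:**
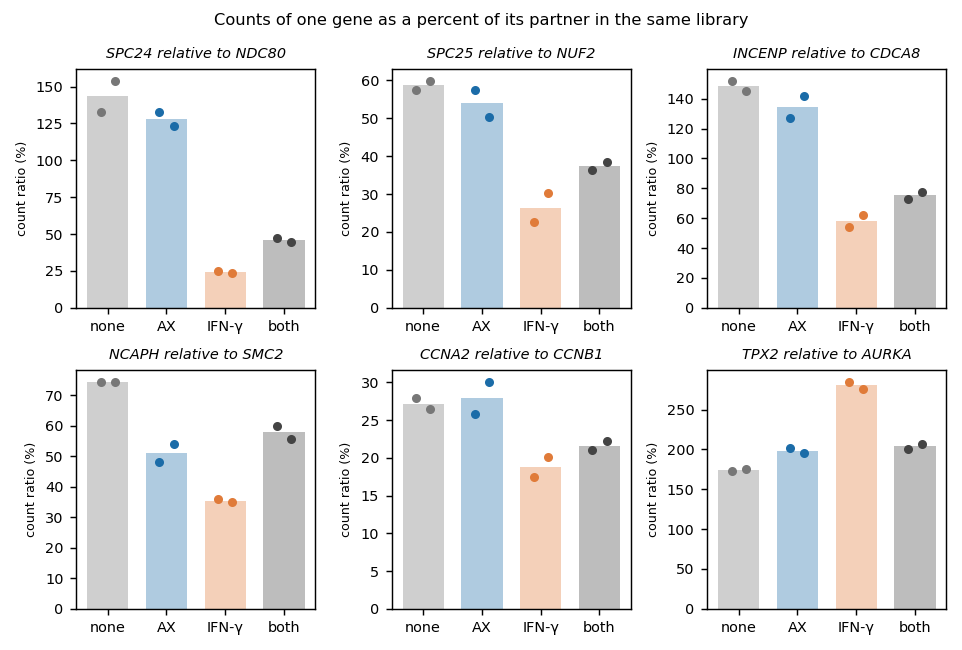
Counts of one gene as a percent of the counts of a partner in the same library (y axis, linear from 0) for 6 pairs, with points for the 2 libraries of each group (none is untreated, AX is AX-0085) and bars for their mean. SPC24 relative to NDC80 drops from 133% and 154% to 24.7% and 23.7% under IFN-γ, while TPX2 relative to AURKA rises from 173% and 175% to 285% and 276%.

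When AX-0085 was added to cells already given IFN-γ, the members changed less than under AX-0085 alone. The median log2 change was -0.58, against 0.03 over all genes. Of 49 members, 5 were down-regulated, and 8.26% of all genes tested were, so that the share of members called was near that of all genes. None was up-regulated (16.5% of all genes were), with 3 higher at an unadjusted p under 0.05 in edgeR and 0 called higher by DESeq2, which called 5 lower. By the adjusted p alone 38 were lower (32.7% of all genes) and 3 higher (33.8% of all genes). The summed level was 3539 and 3554 CPM under both agents.

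The genes called lower were ECT2 (-1.56 ± 0.08), SKA3 (-1.25 ± 0.10), TPX2 (-1.10 ± 0.06), HMMR (-1.09 ± 0.09) and UBE2C (-1.03 ± 0.08). With scaling by library size alone the count was 2, and TPX2 was at -0.98. ECT2 was at 311 and 281 CPM untreated, 84.0 and 93.7 under AX-0085, 210.3 and 240.2 under IFN-γ, and 76.9 and 76.01 under both agents, so that its levels under AX-0085 were low whether or not IFN-γ had been given. The genes with a positive log2 change that passed the adjusted p alone were SPC24 (0.42 ± 0.12), CENPI (0.41 ± 0.09) and NCAPD2 (0.24 ± 0.06). All had been lower under IFN-γ than in untreated cells.

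The difference between the AX-0085 effect with and without IFN-γ, the interaction term, was positive in all 49 members, with a median of 0.86 against 0.05 over all genes. It was called in 16 members, all positive, while 12.1% of all genes tested were called positive. None was called negative (6.46% of all genes were), with 0 negative at an unadjusted p under 0.05 in edgeR and 0 by DESeq2, which called 15 positive. By the adjusted p alone 46 were positive (26.9% of all genes) and 0 negative (23.7% of all genes). The interaction was largest for SPC24 (1.96 ± 0.15), CENPI (1.89 ± 0.12) and NCAPH (1.67 ± 0.10). ESPL1 followed at 1.43 ± 0.10, and its level under both agents, 48.9 and 49.1 CPM, stood above its IFN-γ level. That rise of 0.14 ± 0.07 by log2 did not pass the test (adjusted p = 0.102, edgeR quasi-likelihood test with Benjamini-Hochberg adjustment). Both the AX-0085 effect and the IFN-γ effect use the untreated libraries, so that the term is not independent of either.

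**Figure D5:**
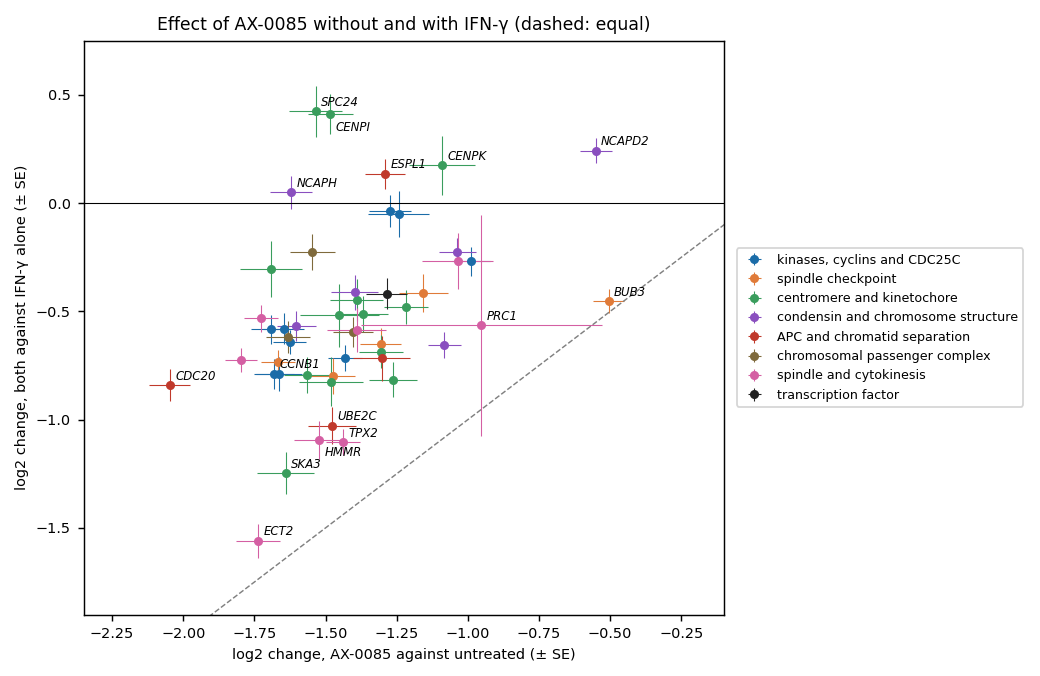
Log2 change under AX-0085 in cells without IFN-γ (x axis) against that in cells given IFN-γ (y axis) for 49 mitotic genes, coloured by class, with standard errors and a dashed line where both are equal. All points lie above the line, BUB3 and ECT2 nearest to it with differences of 0.05 and 0.18. SPC24, CENPI, NCAPD2, CENPK, ESPL1 and NCAPH lie above 0 on the y axis.

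By class, the interaction was called in 4 of 9 kinases and cyclins, 0 of 5 checkpoint genes (4 at an unadjusted p under 0.05 in edgeR), 4 of 13 centromere and kinetochore genes, 2 of 6 condensin and chromosome structure genes, 2 of 4 APC and chromatid separation genes, 2 of 3 passenger complex genes and 2 of 8 spindle and cytokinesis genes. Over all genes tested, 12.1% were called positive. The classes are small, and differences between them were not tested. ECT2 (0.18 ± 0.11) and BUB3 (0.05 ± 0.08, and -0.0034 without IFN-γ replicate 2) did not pass the test. In ECT2 the changes under AX-0085 were -1.74 without IFN-γ and -1.56 with it.

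Cells given both agents had lower levels than untreated cells in all 49 members tested. Of these, 31 were down-regulated, while 7.22% of all genes tested were, and the median was -1.15 against 0.01 over all genes. None was up-regulated (7.52% of all genes were), with 0 higher at an unadjusted p under 0.05 in edgeR and 0 by DESeq2, which called 29 lower. By the adjusted p alone all 49 were lower (28.9% of all genes) and 0 higher (28.2% of all genes). The largest changes were in SPC24 (-2.08 ± 0.10), MAD2L1 (-2.03 ± 0.08) and SPC25 (-2.02 ± 0.11), and the smallest in ESPL1 (-0.41 ± 0.07), NCAPD2 (-0.42 ± 0.06) and CDC25C (-0.44 ± 0.10). PRC1, with 6 to 19 counts per library, was called in this comparison (-1.28 ± 0.44, adjusted p = 0.0228, edgeR quasi-likelihood test with Benjamini-Hochberg adjustment).

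Against AX-0085 alone, cells given both had no member called in either direction (1.74% of all genes were called higher and 1.76% lower). In edgeR 26 members were higher and 9 lower at an unadjusted p under 0.05, and 24 higher and 7 lower by the adjusted p alone (17.4% and 17.6% of all genes). DESeq2 called 0. The median was 0.20. The largest positive values were NDC80 (0.92 ± 0.09), ESPL1 (0.88 ± 0.07) and CDCA8 (0.81 ± 0.07), and the largest negative ones were MAD2L1 (-0.55 ± 0.08) and SPC24 (-0.55 ± 0.11).

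Set directly against IFN-γ alone, AX-0085 alone gave lower levels of 18 of 49 members, while 12.2% of all genes tested were lower. The time of exposure also differed, since IFN-γ was given 24 h before AX-0085. None was called higher (19.9% of all genes were), with 3 higher at an unadjusted p under 0.05 in edgeR (SPC24, CENPI and CENPK) and 0 by DESeq2, which called 19 lower. By the adjusted p alone 41 were lower (34.5% of all genes) and 3 higher (37.9% of all genes). TPX2 (-1.80 ± 0.06), SKA3 (-1.72 ± 0.10) and AURKB (-1.46 ± 0.08) were lowest under AX-0085 relative to IFN-γ, and SPC24 was at 0.97 ± 0.11. The share of counts taken by the members was 0.792% and 0.749% in untreated cells, 0.304% and 0.317% under AX-0085, 0.475% and 0.492% under IFN-γ, and 0.370% and 0.356% under both agents.

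A list of 34 replication fork genes, of which 31 were tested, was set beside the mitotic genes. With AX-0085, 15 of 31 were down-regulated (median -0.98), and under IFN-γ 22 of 31 were (median -1.20). LIG1, the ligase that joins Okazaki fragments, had the largest change, -3.10 ± 0.09 under IFN-γ. Their summed level was 4453 and 4645 CPM untreated, 2092 and 2080 under AX-0085, 1965 and 1897 under IFN-γ, and 1750 and 1762 under both agents. The summed level of the mitotic members relative to it was 1.71 and 1.62 untreated, 1.43 and 1.49 under AX-0085, 2.63 and 2.69 under IFN-γ, and 2.02 and 2.02 under both agents. The ratio was thus lowest under AX-0085 and highest under IFN-γ, with no overlap between groups.

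Other genes of mitosis were counted from lists that exclude the 50 members. Of 16 listed mitotic entry regulators, 14 were tested and 6 were down-regulated by AX-0085, with PKMYT1, the kinase that inhibits CDK1, at -1.93 ± 0.10. With IFN-γ 1 of the 14 was lower, and 1, CCNH, the cyclin of the CDK-activating kinase, was up-regulated (1.33 ± 0.08). CCNH was at 32.6 and 34.4 CPM untreated, 31.0 and 30.1 under AX-0085, 90.4 and 77.8 under IFN-γ, and 37.8 and 40.1 under both agents. With AX-0085 added after IFN-γ, 5 of the 14 were lower. Of 21 tested subunits of the constitutive centromere, Mis12 and RZZ complexes, 8 were lower under AX-0085 and 6 under IFN-γ, where MIS12, a kinetochore subunit, was higher (1.29 by log2, from 39.6 and 38.5 CPM to 97.2 and 94.3 CPM).

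Of 15 tested core subunits and cofactors of the APC, 1 was down-regulated by AX-0085, UBE2S, the enzyme that extends ubiquitin chains on APC substrates, at 250.1 and 315 CPM untreated, 75.3 and 82.9 under AX-0085, 413 and 336 under IFN-γ, and 133 and 133 under both agents (-1.83 by log2 under AX-0085). With IFN-γ, 2 of these 15 APC genes were lower. Cohesin and its regulators had 4 of 15 lower under AX-0085 and 1 of 15 under IFN-γ, the largest change under AX-0085 being in SGO2, a protector of centromeric cohesion (-1.53 ± 0.11). Of 3 further condensin genes, 2 were lower under AX-0085 and 2 under IFN-γ, with NCAPD3 of condensin II at -1.33 and -1.16. Of 11 tested genes of the DREAM and B-MYB complexes, 1 was lower under AX-0085 and 2 under IFN-γ. MYBL2, which encodes B-MYB, was at 197 and 213 CPM untreated, 57.0 and 63.3 under AX-0085, 58.2 and 52.6 under IFN-γ, and 50.4 and 51.8 under both agents, and E2F4 (1.13) and E2F5 (1.15), which encode repressor E2Fs, were higher under IFN-γ. Background shares for these counts are those given above for each comparison.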

How the data were processed

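RNA of 8 libraries of A549 cells, 2 for each of 4 groups, was analysed. The authors trimmed the reads with Trim Galore 0.6.7, aligned them with STAR 2.7.9a to GRCh38, summarised them by gene in featureCounts and deposited raw counts without normalization. The annotation release, the strand setting and the handling of reads that map to several places are not given in the sources used here, although the library kit was stranded, so that counts of overlapping or repeated genes may be split or lost. No column of per-sample values was left out (0).

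Symbols, exon lengths and overlaps were taken from GENCODE 44, in which 60463 of 60664 identifiers were found. Counts were filtered with edgeR 4.0.16 (filterByExpr, R 4.3.3), scaled with TMM factors and tested with the quasi-likelihood test in 1 model of the 4 groups, and p-values were adjusted over 15066 genes. Calls needed an adjusted p under 0.05 and a log2 change over 1 in size. A prior count of 0.125 entered the log2 values per library. The members and the other lists were chosen with earlier results of these data known.

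Values in every library are given for a fixed set of marker members, the largest and smallest change of each class with AX-0085, members not called there, and the 3 largest changes in each direction with IFN-γ and in the interaction. Gene pairs and a few further genes were added after their values were seen. Alternatives were the DESeq2 1.42.0 Wald test, RLE size factors, library size alone, no filter, at least 10 counts in every library, only the groups compared, a block for the replicate number, adjusted p alone, and leaving out each library. Promoter windows and letters came from RefSeq on GRCh38.p14, 1 window for each gene. On simulated counts of AX-0085 against untreated cells (14631 genes), edgeR recovered 100% of the genes planted at log2 changes of 1.5 and 2, and DESeq2 99% and 100%. There were 2 false calls by edgeR and 0 by DESeq2. Changes were planted only in well-counted genes, and all genes had the same spread. The simulation therefore says nothing about genes with few counts, such as PRC1, or about changes near the 2-fold threshold.

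The libraries of a group differed by more than sampling noise (chi-square per degree of freedom between 9.5 and 31.6), so each was counted as 1 sample. In every library, 48 of the members had at least 130 counts.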

Additional observations from a re-analysis of the deposited data

Results flagged for a closer look

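The effect of AX-0085 differed between cells without and with IFN-γ in 16 members, by the interaction term of edgeR's quasi-likelihood model (adjusted p by Benjamini-Hochberg under 0.05, log2 difference over 1). In the kinetochore and centromere genes the log2 difference was 1.958 for SPC24, 1.893 for CENPI, 1.386 for SPC25 and 1.265 for CENPK. In the condensin genes it was 1.671 for NCAPH and 1.036 for NCAPG. In the APC and chromatid separation genes it was 1.426 for ESPL1 and 1.207 for CDC20, and in the passenger complex 1.321 for INCENP and 1.014 for BIRC5. Among kinases and cyclins it was 1.236 for NEK2, 1.192 for CDC25C, 1.11 for PLK1 and 1.067 for CCNA2, and among spindle and cytokinesis genes 1.194 for DLGAP5 and 1.074 for ANLN. In all 16 the fall with AX-0085 was smaller in cells given IFN-γ, or the change was positive there. SPC24, CENPI, NCAPH, SPC25, INCENP, CENPK, ANLN and CCNA2 were also called lower with IFN-γ alone (17.2% of all genes were). The other 8 were short of the 2-fold threshold there, with log2 changes from -0.99 (CDC20) to -0.29 (BIRC5). All 8 were lower by the adjusted p alone (36.0% of all genes were).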

How the results depend on the processing

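No median over members changed direction under the alternatives run, and neither did any called change of the 25 members followed singly. The sign of changes near 0 that passed no test turned in CDCA8 under IFN-γ (0.0032, but -0.11 with library size alone, -0.013 with at least 10 counts in every library and -0.016 without IFN-γ replicate 1), in SKA3 under IFN-γ (0.08, but -0.04 with library size alone) and in the interaction of BUB3 (0.05, but -0.0034 without IFN-γ replicate 2). Of the values of single members, 786 kept their call with 1 library left out and 659 under the other settings. Another 8 and 8 passed the threshold where the reported value did not, and 6 and 3 lost it. The adjusted p alone, without the 2-fold threshold, raised the counts to 43 lower and 1 higher with IFN-γ, 38 lower and 3 higher for AX-0085 added to IFN-γ, 49 lower for both against untreated, 7 lower and 24 higher for both against AX-0085, 41 lower and 3 higher for AX-0085 against IFN-γ, and 46 higher in the interaction. Scaling by library size alone moved the median of all genes by -0.12 with IFN-γ, 0.12 for AX-0085 added to IFN-γ, 0.12 for AX-0085 against IFN-γ and 0.12 in the interaction. It moved the members' median to -0.68 with IFN-γ, -0.46 for AX-0085 added to IFN-γ, where 2 were called lower, -0.67 for AX-0085 against IFN-γ, where 1 was called higher, and 0.97 in the interaction. Leaving out 1 library at a time gave between 43 and 45 members lower with AX-0085 (median -1.47 to -1.41), 9 to 10 with IFN-γ (median -0.59 to -0.48, the latter without IFN-γ replicate 2), 4 to 5 for AX-0085 added to IFN-γ (median -0.60 to -0.56), 27 to 31 for both against untreated (median -1.17 to -1.11), 0 for both against AX-0085 (median 0.18 to 0.25), 15 to 19 lower and 0 to 1 higher for AX-0085 against IFN-γ (1 without IFN-γ replicate 1), and 14 to 18 higher in the interaction. The replicate numbers were shared between groups, and the column names begin with A for replicate 1 and with B for replicate 2. Deviations of libraries with the same number did not go together (correlations from -0.07 to 0.04). These correlations cannot exclude that libraries with the same number shared a culture or a preparation, which was not tested. With the replicate number as a block the counts were 45 lower with AX-0085, 10 with IFN-γ and 16 in the interaction, and the median with IFN-γ was -0.57. With 2 libraries per group and 6 to 19 counts, changes of PRC1 were the least certain (SE 0.42 to 0.68), and SMC4 could not be described.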
